A study of Homo sapiens with 9 samples.

Results

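The comparison is between ACHN cells given 50 nM piericidin A and ACHN cells given 25 nM piericidin A, 3 libraries of total RNA against 3, which are 6 of the 9 libraries of the series. ACHN is an established human renal cell carcinoma line, grown here in 6-well plates. The other 3 libraries came from cells given 0.1% DMSO, and their levels are set beside the 2 doses below as a description only. The labels do not say whether the piericidin A cells also held DMSO or how long any group was treated. Separate cultures are not stated for the 3 samples per group, so each p-value measures the spread between these samples, which may be technical. The comparison covered 15541 of the 30673 genes in the deposited table, those with at least 0.5 FPKM (fragments scaled to gene length and library size) in at least 3 of the 9 libraries. Of these, 11722 were protein-coding by the authors' gene type and 3819 were of other types.

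Piericidin A blocks respiratory complex I, the enzyme that passes electrons from NADH to ubiquinone at the start of the mitochondrial respiratory chain. Cells that cannot respire rely on glycolysis for ATP and use less oxygen. Hypoxia-inducible factor (HIF) is a transcription factor whose alpha subunits are destroyed when oxygen is present, through prolyl hydroxylases and the VHL ubiquitin ligase. HIF switches on genes of glycolysis, blood vessel growth and matrix remodelling. Heat shock factor switches on chaperones when proteins misfold. The mitochondrial genome encodes core subunits of the respiratory chain, complex I included, and is transcribed apart from the nucleus.

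Libraries held 24365472 to 29245674 fragments. Replicate 3 of the 25 nM group stood apart from its 2 partners: the chi-square per degree of freedom between fragment counts was 15.7 and 17.8 against it and 2.36 between the other 2. The values were 4.77 to 7.88 among the 50 nM libraries and 1.75 to 2.39 among the DMSO libraries. Of 20 renal epithelial markers, PAX8 (66.0 to 93.5 FPKM over the 9 libraries), KRT8 and VIM were expressed. Some markers of differentiated proximal tubule were at or near 0, with highest values of 0.0113 FPKM for HNF4A, 0.115 for AQP1 and 0.0596 for SLC34A1. GGT1, also among the 20, was expressed at 15.8 to 22.9 FPKM. Of 9 listed markers of leukocytes, endothelium and fibroblasts, 8 stayed under 1 FPKM in every library. The exception was ACTA2, and the summed level of the 9 was 4.22 to 4.65 FPKM at 50 nM and 5.26 to 5.85 at 25 nM.

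Doubling the dose changed 5205 of 15541 genes (33.5%) at an adjusted p under 0.05, and most changes were small. Within that test 37.5% of the protein-coding genes passed, 13.2% higher and 24.3% lower, and under scaling by totals 30.9% did, 19.6% higher and 11.3% lower. In the protein-coding genes tested alone, 4995 of 11722 (42.6%) passed, 1809 higher (15.4%) and 3186 lower (27.2%) at 50 nM. Only 34 of the higher and 7 of the lower protein-coding genes differed by 2-fold or more in the test over all genes. Over all tested genes, 2288 (14.7%) were higher and 2917 (18.8%) lower. Among the 3819 other genes, which are non-coding genes, pseudogenes and 937 genes without a type in the authors' annotated table, 746 (19.5%) were higher and 66 (1.73%) lower. The median log2 difference was -0.07 for protein-coding genes and 0.41 for the others, but the filter on low values bears on the latter median: with a mean of at least 1 FPKM it was 0.31, and under quantile normalization 0.16.

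The balance of rises and falls depended on how libraries were scaled. The deposited FPKM were already scaled so that the typical gene is level between libraries. Rescaling each library by its own fragment total raised all differences by a median of 0.0964 on the log2 scale. It left 4511 called genes (29%), 3153 higher (20.3%) and 1358 lower (8.74%). Among protein-coding genes alone it left 4084 (34.8%), 2627 higher (22.4%) and 1457 lower (12.4%). Scaling by totals of nuclear protein-coding genes gave 3062 higher and 1094 lower of these, quantile normalization 1910 and 2128, and removing each library's trend on gene length 2445 and 2373. Calls that passed in the same direction under both scalings numbered 3645 over all genes (23.5%), 2287 higher and 1358 lower, and 3266 (27.9%) among protein-coding genes alone. A result below is said to hold under both scalings in this sense, and its adjusted p comes from limma under the deposited scaling unless the text says otherwise. Without replicate 1 of the 50 nM group, 3441 of all genes passed under the deposited scaling and 2838 under scaling by totals. Without the 25 nM library that stood apart, 5829 passed.

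Among protein-coding genes, the strongly expressed ones were the more often lower at 50 nM. Of 4 equal bins by mean FPKM, the highest held 2931 genes, of which 1449 were lower and 163 higher, with a median log2 difference of -0.17. In the lowest bin 133 were lower and 448 higher, with a median of 0.06. Under scaling by totals these medians were -0.07 and 0.16. In bulk RNA, fewer cells that express a gene and less of its RNA per cell cannot be told apart.

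**Figure D1:**
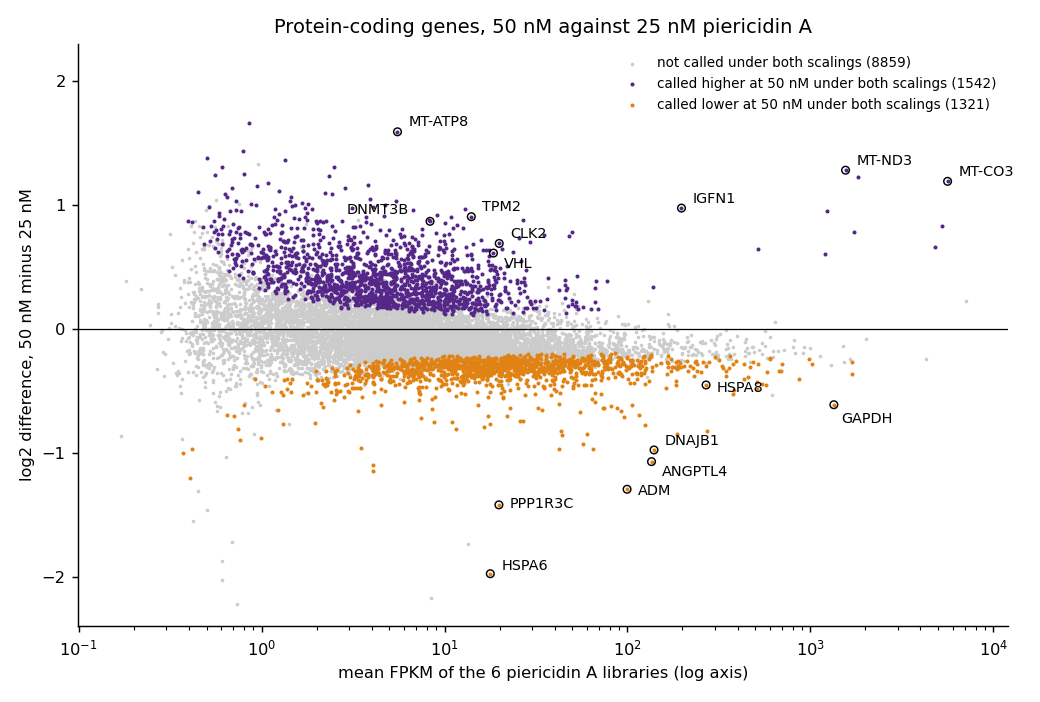
Each point is 1 tested protein-coding gene, placed by its mean FPKM over the 6 piericidin A libraries (horizontal, log axis) and its log2 difference, 50 nM minus 25 nM (vertical). Purple and orange points were called higher (1542) or lower (1321) under both scalings in the test over all genes, and the named genes are circled.

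HIF targets were lower at 50 nM in every member that could be tested. Of 25 listed targets outside glycolysis, 24 passed the filter on low values and all 24 were called lower, with a median log2 difference of -0.61 against -0.01 for all tested genes. The background for a lower call was 18.8% over all tested genes, 24.3% over protein-coding genes and 49.4% over the most expressed of 4 bins of protein-coding genes. Under scaling by totals 23 of 24 were called and the median was -0.51. The exception was EGLN1, an oxygen-sensing prolyl hydroxylase, with a log2 difference of -0.16 (adjusted p = 0.0445) that became -0.06 (adjusted p = 0.433). In the 24 genes, the 3 libraries of 50 nM lay entirely below the 3 of 25 nM, beside 45.4% of all tested genes whose doses did not overlap in either direction (42.5% under scaling by totals).

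ADM encodes adrenomedullin, a vasodilating peptide. It measured 143, 143 and 138 FPKM in the 25 nM libraries and 49.4, 62.9 and 61.1 at 50 nM, against 127, 118 and 118 in DMSO. The 25 nM libraries were thus the highest of the 3 groups and the 50 nM libraries the lowest, with no overlap between the doses. Its log2 difference was -1.30 (SE 0.08, adjusted p = 0.00011), the largest of the list. ANGPTL4, a secreted inhibitor of lipoprotein lipase, went from 184 ± 11.6 to 87.3 ± 7.7 FPKM (SD, n = 3), with 269 ± 1.96 in DMSO. LOX, the enzyme that cross-links collagen, measured 88.2, 90.8 and 77.2 FPKM at 25 nM and 39.8, 45.9 and 44.9 at 50 nM, with 141 ± 2.48 in DMSO. ANGPTL4 and LOX each fell by about 1 on the log2 scale, -1.07 (SE 0.07) and -0.97 (SE 0.07). In the authors' table the span of ANGPTL4 overlaps ELAVL1 and RAB11B-AS1, and that of LOX overlaps SRFBP1.

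Other called members covered different roles of the HIF response. NDRG1, a stress-responsive cytoplasmic protein, went from 74.8 ± 4.42 to 39.3 ± 2.54 FPKM (log2 difference -0.93). DDIT4, an inhibitor of mTORC1, went from 346 ± 10.2 to 196 ± 13.4 FPKM (-0.82), with 240.1 ± 4.43 in DMSO. INSIG2, a protein of the endoplasmic reticulum that takes part in sterol control, went from 21.5 ± 0.715 to 13.2 ± 0.0825 FPKM (-0.71). VEGFA, the vascular growth factor, went from 14.6 ± 0.53 to 10.8 ± 0.629 FPKM (-0.43, adjusted p = 0.000557), and BNIP3, a receptor for mitophagy, from 62.1 ± 1.9 to 45.5 ± 4 FPKM (-0.45). The smallest differences were those of P4HA2 (-0.31), STC2 (-0.25) and EGLN1. CA9 stayed near the filter at 0.972 ± 0.171 against 0.517 ± 0.136 FPKM, and its call rests on low values.

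The components of the HIF pathway itself did not move as a block. Messenger RNA for HIF1A, the alpha subunit, was 42.2 ± 2.32 FPKM at 25 nM and 44.1 ± 0.492 at 50 nM and was not called (log2 difference 0.06, adjusted p = 0.284), while under scaling by totals it was called at 0.16 (adjusted p = 0.0359). EPAS1, which encodes HIF-2 alpha, fell from 53.4 ± 4.6 to 39.5 ± 1.72 FPKM (-0.43, adjusted p = 0.00142). VHL, which marks the alpha subunits for destruction, measured 14.3, 14.6 and 14.9 FPKM at 25 nM and 22, 21.8 and 23.4 at 50 nM. It rose by 0.61 (SE 0.04, adjusted p = 0.000157) and stood at 19.2 ± 0.775 in DMSO. EGLN2, another prolyl hydroxylase, had a log2 difference of 0.64 with means under 1 FPKM in both groups. It passed the filter only with the 50 nM libraries, which favours a higher call. Of 7 tested genes of this list, 2 were higher, EGLN2 included, 1 lower and 4 not called, beside 33.5% called among all tested genes.

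Glycolysis fell almost throughout. Of 24 listed genes of glycolysis and lactate export, 22 were tested and 21 were lower, from glucose uptake to lactate formation, with a median log2 difference of -0.46. Under scaling by totals 20 were lower and the median was -0.36. GAPDH, the glyceraldehyde-3-phosphate dehydrogenase often used as a reference gene, measured 1599, 1586 and 1692 FPKM at 25 nM and 1004, 1116 and 1071 at 50 nM. Its DMSO libraries (1595, 1561 and 1532) lay next to the 25 nM ones, and no 50 nM library reached them. The log2 difference was -0.61 (SE 0.05, adjusted p = 0.000259).

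The other steps differed in size more than in direction. The glucose transporters SLC2A3 (33.8 ± 4.38 to 20.1 ± 1.21 FPKM, log2 difference -0.74) and SLC2A1 (128 ± 2.54 to 83.7 ± 4.56, -0.61) fell. So did HK2, the hexokinase that traps glucose in the cell (27.9 ± 4.75 to 17.7 ± 1.06, -0.64), and PFKFB3, which makes the activator of phosphofructokinase (-0.71). PGK1, which makes ATP late in the pathway, measured 142, 143 and 143 FPKM against 83.1, 92.7 and 88.3 (-0.70, adjusted p = 0.00011). LDHA, which turns pyruvate into lactate, went from 449 ± 15.6 to 319 ± 20.7 FPKM (-0.49). The phosphofructokinase subunits were at the other end: PFKP fell by 0.25, PFKL had -0.16 (adjusted p = 0.0276, and 0.38 under scaling by totals) and PFKM -0.09 (adjusted p = 0.0733). The 22 genes together held 2.38, 2.37 and 2.48% of fragments at 25 nM and 1.81, 1.93 and 1.83% at 50 nM, with 2.51 ± 0.0452% in DMSO. An exact two-sided permutation test gave p = 0.1 for this share, the smallest that 3 against 3 allows.

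The promoters of LDHA and BNIP3 are printed because they hold the most copies, among the listed targets, of the short core that HIF binds. Each window runs from 250 bases before to 50 bases after the RefSeq gene start (GRCh38.p14), 5′ to 3′ on the gene's strand, and capitals mark ACGTG or GCGTG on either strand; CACGTG counts as 2 overlapping matches.
LDHA, chr11:18394313-18394612, plus strand: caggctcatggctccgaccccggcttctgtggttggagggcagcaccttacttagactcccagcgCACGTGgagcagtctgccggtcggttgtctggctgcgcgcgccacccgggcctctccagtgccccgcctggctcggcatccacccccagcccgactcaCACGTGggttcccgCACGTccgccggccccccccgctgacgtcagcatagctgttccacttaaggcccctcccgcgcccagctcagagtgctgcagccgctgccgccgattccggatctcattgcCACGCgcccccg
BNIP3, chr10:131981874-131982173, minus strand: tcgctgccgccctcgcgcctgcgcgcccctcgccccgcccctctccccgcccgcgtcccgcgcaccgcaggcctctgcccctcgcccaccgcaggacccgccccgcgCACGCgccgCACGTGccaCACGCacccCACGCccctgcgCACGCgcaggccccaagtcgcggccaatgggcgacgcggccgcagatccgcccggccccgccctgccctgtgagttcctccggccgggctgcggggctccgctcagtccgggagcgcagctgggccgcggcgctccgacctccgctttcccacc
Each window holds 6 matches, while other listed targets hold 0 to 5. One of the 2 cores was present in 17 of 21 promoters of the HIF list and 15 of 22 of the glycolysis list that had a RefSeq window, and in 48.4% of all 27305 promoters of this length. A match is a stretch of letters and does not show that HIF was bound.

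Most cytosolic heat shock chaperones and cofactors were lower at 50 nM than at 25 nM. Together they held 1.18 ± 0.0428% of fragments at 25 nM, 1.001 ± 0.00159% at 50 nM and 0.652 ± 0.00122% in DMSO. Of 28 listed chaperones and cofactors, 26 were tested, 15 were lower and none higher, with a median log2 difference of -0.29. Beside this, 24.3% of all protein-coding genes were lower, and 49.4% of those in the most expressed of the 4 bins. Under scaling by totals 13 were lower and 1 higher, with 11.3% of all protein-coding genes lower. HSPA6, a strictly stress-inducible HSP70, measured 31.6, 23.8 and 30.0 FPKM at 25 nM and 8.03, 7.01 and 6.37 at 50 nM, against 0.344 ± 0.125 in DMSO. All 50 nM libraries were thus above DMSO and below every 25 nM library. The log2 difference of -1.98 (SE 0.20, adjusted p = 0.000411) was the largest fall among the protein-coding genes named by rule. DNAJB1, an HSP40 partner of HSP70, measured 196, 157 and 204 FPKM at 25 nM and 98.8, 91.8 and 90.6 at 50 nM (-0.98, adjusted p = 0.000282), with 14.5 ± 0.871 in DMSO. Its span overlaps TECR.

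The rest of the list moved less. HSPA8, the constitutive HSP70, went from 311 ± 9.18 to 227 ± 4.74 FPKM (-0.45), HSPB1, a small heat shock protein, from 521 ± 74.7 to 394 ± 15.5 (-0.39), and BAG3, an HSP70 exchange factor, from 16.8 ± 0.031 to 12.9 ± 0.263 (-0.38). HSP90AB1, an HSP90 isoform, fell by 0.34. The inducible HSP70 pair was not called: HSPA1A was at 38 ± 4.57 and 35.3 ± 2.32 FPKM (-0.10, adjusted p = 0.575) and HSPA1B at 146 ± 20.5 and 111 ± 6.11 (-0.39, adjusted p = 0.0543). These 2 genes are near-identical copies, so reads may have been split between them. DMSO levels were 1.03 ± 0.2 FPKM for HSPA1A and 3.67 ± 0.674 for HSPA1B. DNAJB2, DNAJB4, DNAJB6 and HSPB8 had differences between -0.04 and 0.02 and were not called.

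HSPA6 and HSPA8 carry paired copies of the GAA unit that heat shock factor binds, printed here because these 2 genes of 1 family fell by different amounts. Capitals mark GAANNTTC or TTCNNGAA, each the same on both strands, and overlapping matches run together.
HSPA6, chr1:161524290-161524589, plus strand: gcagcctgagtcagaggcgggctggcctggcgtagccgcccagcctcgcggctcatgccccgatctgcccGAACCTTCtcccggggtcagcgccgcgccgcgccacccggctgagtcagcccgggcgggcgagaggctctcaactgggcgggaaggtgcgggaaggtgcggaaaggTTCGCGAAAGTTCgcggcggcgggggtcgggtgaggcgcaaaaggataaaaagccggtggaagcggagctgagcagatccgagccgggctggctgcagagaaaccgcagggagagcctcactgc
HSPA8, chr11:123062087-123062386, minus strand: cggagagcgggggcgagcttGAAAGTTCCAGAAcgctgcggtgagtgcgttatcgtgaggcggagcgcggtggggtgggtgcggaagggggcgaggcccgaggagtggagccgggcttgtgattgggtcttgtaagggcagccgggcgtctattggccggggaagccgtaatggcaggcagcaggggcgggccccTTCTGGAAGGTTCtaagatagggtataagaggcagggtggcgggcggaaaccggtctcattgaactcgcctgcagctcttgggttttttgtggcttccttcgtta
The HSPA6 window holds 3 matches and the HSPA8 window 4. Such a pair was present in 11 of 24 promoters of the chaperone list with a RefSeq window and in 13.7% of all 27305.

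Some members of other folding machines and of stress pathways were also lower. The share called lower was 24.3% among all protein-coding genes, 49.4% in the most expressed of the 4 bins, and 11.3% of all under scaling by totals. Of 8 subunits of TRiC, the chaperonin that folds actin and tubulin, 7 were lower under both scalings, from CCT4 (93.6 to 73 FPKM, log2 difference -0.36) to TCP1 (-0.21), and CCT6A was not called. Of 23 chaperones and sensors of the endoplasmic reticulum, 14 were lower and none higher (10 under scaling by totals). Among them were PDIA6 and P4HB, which form disulfide bonds (-0.41 and -0.37), and HSPA5, the HSP70 of that compartment (-0.30). XBP1, a transcription factor of the unfolded protein response, fell from 6.86 to 5.41 FPKM (-0.34). Of 16 genes of the integrated stress response, 8 were lower and 1 higher, and 3 and 1 under scaling by totals. PPP1R15A, which restarts translation, fell by 0.43 and GDF15, a secreted stress hormone, by 0.35, while DDIT3 was at 32.2 and 30.1 FPKM and not called. Of 16 mitochondrial chaperones and proteases, 6 were lower, HSPD1 (-0.30) among them, and 1 higher, SPG7 (0.56), and under scaling by totals 3 and 1.

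**Figure D2:**
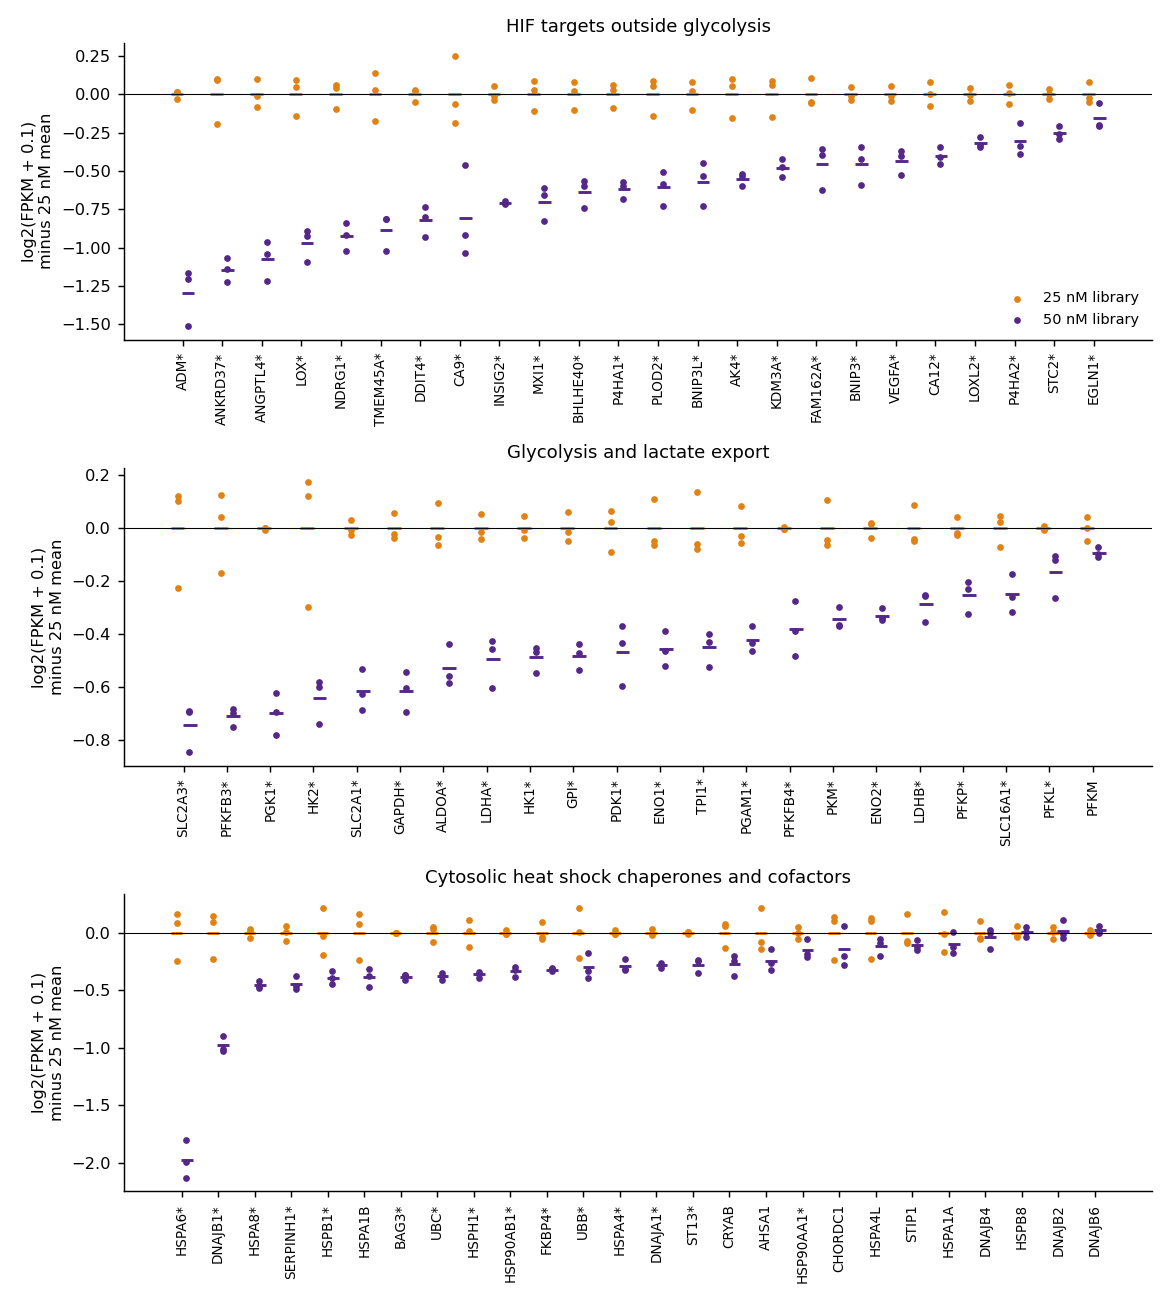
For each tested member of 3 lists, points are the 3 libraries of 25 nM (orange) and of 50 nM (purple), as log2(FPKM + 0.1) minus the 25 nM mean of that gene, and bars are group means. An asterisk marks an adjusted p under 0.05; the 50 nM points lie below the 25 nM points for the 24 HIF targets and the 22 glycolysis genes, and for HSPA6 by about 2 units.

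Most messenger RNAs of the mitochondrial genome went up, while few nuclear genes for the same complexes were called higher. Of its 13 messenger RNAs, 10 were higher at 50 nM under both scalings and MT-ND6 was lower under the deposited scaling alone. They held 2.16, 2.45 and 3.01% of fragments at 25 nM and 3.98, 3.54 and 4.76% at 50 nM, against 1.58 ± 0.12% in DMSO. The doses did not overlap, and the exact two-sided permutation p was 0.1, the smallest 3 against 3 allows. The 2 mitochondrial ribosomal RNAs held 1.81 ± 0.243% at 25 nM and 1.82 ± 0.213% at 50 nM (exact permutation p = 1). So the 2 kinds of mitochondrial transcript parted between the doses: MT-RNR1 had a log2 difference of -0.27 (adjusted p = 0.11) and MT-RNR2 -0.07 (adjusted p = 0.697).

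MT-ND3, a membrane subunit of complex I, measured 777, 832 and 1133 FPKM at 25 nM and 2045, 2022 and 2539 at 50 nM. The DMSO libraries, at 1554, 1517 and 1417, lay between the doses. Its log2 difference was 1.28 (SE 0.14, adjusted p = 0.000462). The other called complex I subunits were MT-ND2 (0.95), MT-ND4L (0.78), MT-ND4 (0.66, but of the other sign under quantile normalization) and MT-ND1 (0.60). Of complex IV, the oxidase at the end of the chain, MT-CO3 measured 2772, 3201 and 4382 FPKM at 25 nM and 7274, 6844 and 9297 at 50 nM (1.19, adjusted p = 0.00128). MT-CO2 rose by 0.83, but MT-CO1 had 0.23 (adjusted p = 0.188). MT-ATP6, an ATP synthase subunit, rose by 1.22 and MT-CYB, of complex III, by 0.64. MT-ATP8 rose by 1.59 from 2.58 ± 0.42 FPKM, a level far under that of MT-ATP6 (1094 ± 273), which it overlaps.

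The other 2 messengers not called higher were MT-ND5 and MT-ND6. MT-ND5 was at 838 ± 94.3 and 796 ± 156 FPKM (-0.09, adjusted p = 0.655). MT-ND6, the messenger encoded on the opposite strand from the rest, measured 645, 676 and 855 FPKM at 25 nM and 473, 412 and 626 at 50 nM (-0.54, adjusted p = 0.0307, and 0.0589 under scaling by totals). The labels do not say whether counting used strand, so reads of MT-ND6 and of transcripts across it cannot be told apart. Replicate 3 was the highest of its group in the mitochondrial share at both doses. Without replicate 1 of the 25 nM group, 6 of the 13 messengers passed as higher under the deposited scaling and 10 under scaling by totals.

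**Figure D3:**
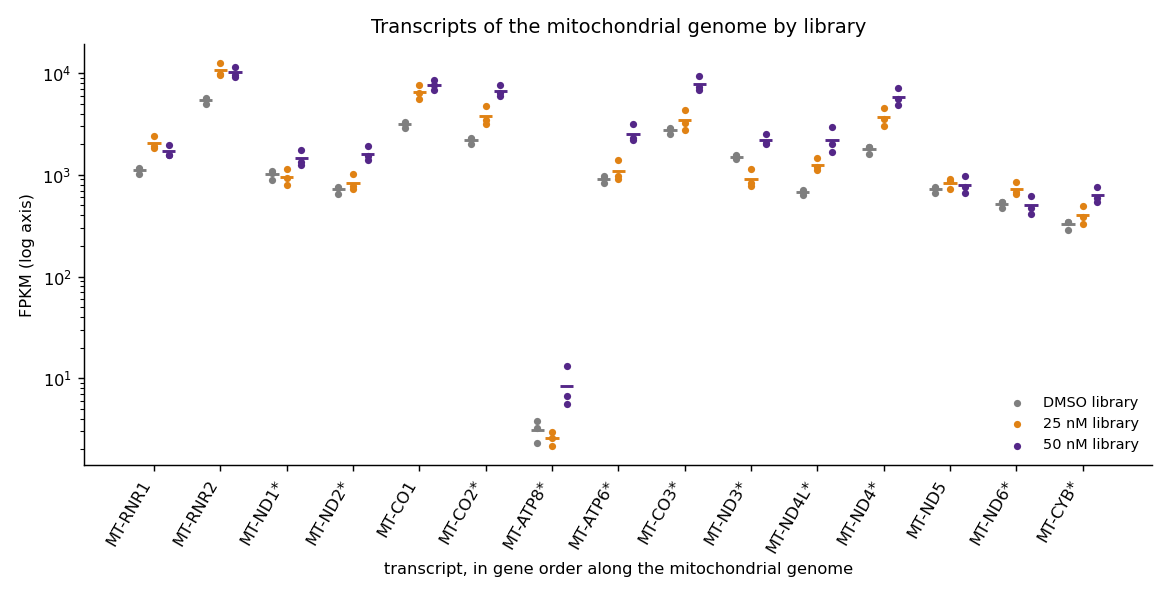
FPKM (log axis) of the 15 genes for ribosomal and messenger RNAs of the mitochondrial genome in gene order, with 1 point per library for DMSO (grey), 25 nM (orange) and 50 nM (purple) and a bar at each group mean. Asterisks mark an adjusted p under 0.05 between the doses; the purple points of MT-ATP6, MT-CO3 and MT-ND3 stand above all others of the gene, and those of MT-ND5 and both ribosomal RNAs do not.

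Nuclear genes for the same machinery showed small falls or none. Of 35 tested nuclear complex I subunits, 4 were lower and 2 higher, and the median of -0.08 turned to 0.01 under scaling by totals and was also above 0 under quantile normalization. The 2 that were higher, NDUFA13 and NDUFV2, were both under 2 FPKM. Of 25 genes of complexes II to IV with cytochrome c, 8 were lower, among them SDHA and SDHD of complex II (-0.27 and -0.33) and NDUFA4 (-0.35), and 3 under scaling by totals. The share of all protein-coding genes called lower was 24.3%, and 11.3% under scaling by totals. Of 15 ATP synthase subunits 4 were lower, led by ATP5B, the catalytic beta subunit (521 ± 42.7 to 419 ± 10.2 FPKM, -0.31), and the median of -0.12 changed sign under quantile normalization and under scaling by nuclear protein-coding totals. Of the factors that transcribe mitochondrial DNA or stabilise its RNA, 5 of 19 were higher and 3 lower, with a median that changed sign under scaling by totals. POLRMT, the mitochondrial RNA polymerase, rose by 0.23 and POLG2, a subunit of the mitochondrial DNA polymerase, by 0.63, while TFAM, which packages the DNA, and LRPPRC, which stabilises the messengers, fell by 0.21 each. The call for TFAM did not hold under scaling by totals.

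Many listed genes of metabolism were lower under the deposited scaling. For comparison, 24.3% of all protein-coding genes were lower, 49.4% in the most expressed of the 4 bins, and 11.3% of all under scaling by totals. In the tricarboxylic acid cycle with pyruvate dehydrogenase, 12 of 18 genes were lower and none higher, with IDH2 (-0.37), DLAT (-0.31) and CS, the citrate synthase (-0.22), among those that held under both scalings, 6 in all. Of 13 genes for NADH shuttles and glutamate entry, 8 were lower, including GOT1 (48.9 to 39.5 FPKM, -0.31) and GLUD1 (-0.32), while under scaling by totals 5 were lower and 3 higher. Of 11 enzymes of serine synthesis and one-carbon metabolism, 8 were lower (6 under scaling by totals), including PHGDH, the first enzyme of serine synthesis (22.6 to 17.4 FPKM, -0.37), and MTHFD2 (-0.32). In fatty acid synthesis, 6 of 11 were lower, and SCD, the stearoyl-CoA desaturase, went from 11 ± 1.44 to 6.49 ± 0.201 FPKM (-0.75, adjusted p = 0.000463). TFRC, the transferrin receptor that brings iron into the cell, went from 14.8 ± 1.73 to 8.4 ± 0.222 FPKM (-0.81), with 26.7 ± 0.726 in DMSO. PRDX1, a peroxiredoxin that removes hydrogen peroxide, went from 207 ± 14.6 to 165 ± 10.1 FPKM (-0.32, adjusted p = 0.00498), and 7 of 19 antioxidant genes were lower, 2 of them under both scalings.

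Most of the listed CLK kinases and of the SR and TRA2 splicing factors were higher at 50 nM. Of the 4 CLK kinases, which phosphorylate SR splicing proteins, CLK1, CLK2 and CLK4 rose by 0.47, 0.69 and 0.42. CLK2 measured 15.6, 13.5 and 16.5 FPKM at 25 nM and 26.1, 24.1 and 23.5 at 50 nM, with 11.6 ± 0.3 in DMSO, so the doses did not overlap. Of 13 SR and TRA2 splicing factors, 8 were higher and 1, SRSF3, lower (-0.18, not called under scaling by totals). TRA2A measured 16, 16.3 and 15.9 FPKM at 25 nM and 26.3, 23.7 and 25.8 at 50 nM (0.65, adjusted p = 0.00011), and SRSF5 12, 12.3 and 13.9 against 19.7, 19.3 and 20.3 (0.63). For both, the DMSO means (20.8 and 14.8 FPKM) lay between the doses. Core proteins of the spliceosome had 12 of 31 lower and 2 higher under the deposited scaling, but 6 lower and 7 higher under scaling by totals. Their median changed sign under quantile normalization. Among all protein-coding genes 24.3% were lower and 13.2% higher under the deposited scaling. Under scaling by totals 11.3% were lower and 19.6% higher.

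Of 6 tested nuclear long non-coding RNAs, 4 were higher under both scalings, beside 14.7% of all tested genes and 19.5% of genes of other types. NEAT1, the scaffold of paraspeckles, measured 21.4, 22.3 and 22.8 FPKM at 25 nM and 57.5, 48.9 and 57.8 at 50 nM, against 14.9 ± 1.38 in DMSO (log2 difference 1.30, SE 0.08, adjusted p = 0.00011). MEG3 went from 11.6 ± 0.62 to 22.6 ± 1.39 FPKM (0.96). MALAT1, a nuclear speckle RNA, measured 75, 60.4 and 98.4 against 117, 102 and 183 FPKM (0.77, adjusted p = 0.0376), with a wide spread in both groups. TUG1 rose by 0.35, and LINC00657 and OIP5-AS1 had differences of 0.02 and 0.04 and were not called.

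Non-coding genes were more often higher than lower at 50 nM, also where low genes were set aside. The filter let in 1268 genes, 180 of them protein-coding, only when the 50 nM libraries were counted, which favours genes that are higher there. The counts by type are given for genes with a mean of at least 1 FPKM over the 9 libraries. That mean also includes the 50 nM libraries, so these counts can still favour genes that are higher there. Of 371 antisense genes, 116 were higher and 12 lower, with a median log2 difference of 0.26. Of 92 sense intronic genes, which lie within introns of other genes, 46 were higher and 2 lower (median 0.53). Of 299 long intergenic RNAs, 66 were higher and 20 lower (median 0.08), and with all 598 that passed the filter the median was -0.08 under quantile normalization. Of 98 transcribed unprocessed pseudogenes, 53 were higher and 0 lower (median 0.35). Of 250 processed pseudogenes, 30 were higher and 12 lower (median 0.10). With each library's trend on gene length removed, 41 of all 451 that passed the filter were higher and 45 lower (median -0.07). Over genes of every type with a mean of at least 1 FPKM, 1910 were higher and 2981 lower. Over all 15541 genes that passed the filter of 0.5 FPKM in 3 libraries, 14.7% were higher and 18.8% lower. At that filter, the sense intronic genes over a tested coding gene were higher in 64 of 177 cases. The 174 coding genes that they lie over were higher in 33 and lower in 51, with a median of -0.04. However, 43 of the 194 tested sense intronic genes passed the filter only with the 50 nM libraries, against 180 of 11722 protein-coding genes. This contrast is therefore partly set by the filter. Named examples were ANKRD10-IT1, within ANKRD10, at 5.84 ± 0.265 and 13.2 ± 1.33 FPKM (1.16, adjusted p = 0.00018), and LINC00106 at 1.82 ± 0.447 and 4.61 ± 0.515 FPKM (1.31). Falls included LINC01116 (-0.37) and HAGLR (-0.37).

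With a mean of at least 1 FPKM required, 445 of 1683 genes of other types were higher and 55 lower. Quantile normalization gave 501 higher and 193 lower of the 3819, and removing each library's trend on gene length 553 and 158 of the 2882 with a length. Most antisense and intronic genes also overlap another gene, and without stated strand use their reads and those of the overlapping gene cannot be told apart. Genes of other types outside the mitochondrial genome held 1.35, 1.32 and 1.37% of fragments at 25 nM and 1.86, 1.77 and 1.79% at 50 nM, against 1.18 ± 0.0148% in DMSO. The number of genes above 0 was 24324 ± 355 at 25 nM and 25936 ± 453 at 50 nM. For both measures the doses did not overlap, and the exact two-sided permutation p was 0.1.

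**Figure D4:**
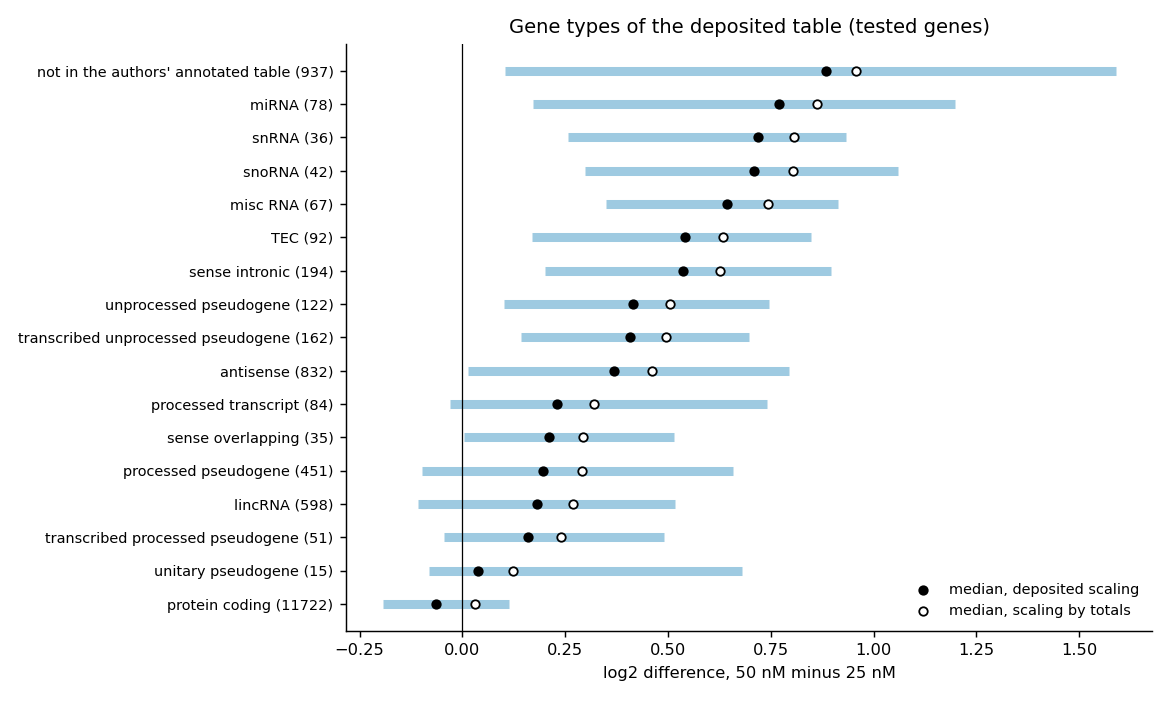
Median log2 difference, 50 nM minus 25 nM, of the tested genes of each type in the deposited table (number of genes in brackets), under the deposited scaling (filled) and scaling by totals (open), with bars from the first to the third quartile under the deposited scaling. Protein-coding genes have the lowest median, -0.07, and sense intronic genes stand at 0.54; the other types include low genes that passed the filter only with the 50 nM libraries.

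Many proliferation genes were lower. The share called lower was 24.3% among all protein-coding genes and 49.4% in the most expressed of the 4 bins. Of 36 genes of mitosis and the spindle, 21 were lower and 1 higher, and of 35 genes of DNA replication, 21 were lower and 1 higher; 14 and 13 were lower under both scalings. TPX2, a spindle assembly factor, went from 78.5 ± 2.15 to 54.8 ± 2.69 FPKM (-0.52). RRM2, the ribonucleotide reductase subunit that limits nucleotide supply, measured 44.6, 46.7 and 44.1 FPKM at 25 nM and 29.9, 30.8 and 32.6 at 50 nM (-0.54, adjusted p = 0.00018), and ORC1, of the origin recognition complex, fell by 0.53. The DMSO means were 70.2 FPKM for TPX2 and 37.7 for RRM2. MKI67 was at 29.3 and 24.1 FPKM (-0.26) and was not called. Replication-dependent histone genes were 4 higher and 0 lower of 36, with a median of 0.12 that changed sign under quantile normalization. Their share called higher did not exceed the 13.2% of all protein-coding genes. HIST1H1E measured 3.54 ± 0.432 and 7.33 ± 0.587 FPKM against 0.425 ± 0.184 in DMSO (1.03, adjusted p = 0.00584).

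Some growth control genes and metabolic regulators were higher at 50 nM. MDM2, a ubiquitin ligase, went from 18.1 ± 1.37 to 25.6 ± 1.7 FPKM (0.50) and BTG2, an antiproliferative gene, from 7.13 ± 0.664 to 11.7 ± 0.0831 (0.71). Their DMSO means, 32.5 and 23.9 FPKM, were above both doses. CDKN1A, the cyclin-dependent kinase inhibitor p21, was at 216 ± 7.98 and 207 ± 5.44 FPKM and was not called (-0.06, adjusted p = 0.292). MAT2A, which makes S-adenosylmethionine, rose from 7.29 ± 0.283 to 11.5 ± 0.712 FPKM (0.65), also below its DMSO mean of 28.8. TXNIP, an arrestin that restrains glucose uptake, rose by 0.37.

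Signalling genes that changed were more often lower than higher, as were protein-coding genes at large (24.3% lower, 13.2% higher). Of 21 chemokines and feedback genes of NF-kB, 12 were lower and 3 higher, 11 and 3 under both scalings. CXCL8, the neutrophil chemokine, went from 985 ± 19.8 to 745 ± 63.8 FPKM (-0.41) and TNFAIP3, which shuts the pathway off, from 40.8 to 29.4 (-0.47). IL6 was at 266 and 245 FPKM and was not called. TNFAIP2, TRAF1 and NFKB2 were higher (0.34, 0.65 and 0.16). Of 23 AP-1 and immediate early genes, 11 were lower and 1 higher (9 and 1 under scaling by totals). DUSP1, a phosphatase that switches off MAP kinases, measured 245, 225 and 249 FPKM against 128, 135 and 135 (-0.85, adjusted p = 0.00011), with 203 ± 12.3 in DMSO. FOSL1 and MYC both fell by 0.48. Of 17 YAP and TEAD targets, 11 were lower, among them AMOTL2 (-0.41) and LATS2 (-0.33), and 1 higher, and under scaling by totals 7 and 2.

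Among well expressed protein-coding genes that overlap no other gene, the largest rises were those of MT-ND3, HIST1H1E and MT-ND2, given above, and of TPM2, DNMT3B and ARGLU1. TPM2, a tropomyosin of actin filaments, went from 9.76 ± 1.37 to 18.3 ± 0.628 FPKM (0.91). DNMT3B, a de novo DNA methyltransferase, measured 6.27, 5.6 and 5.75 FPKM at 25 nM and 11.4, 10.8 and 10.2 at 50 nM (0.87, adjusted p = 0.00011), with 5.7 ± 0.2 in DMSO. The DMSO and 25 nM libraries of DNMT3B shared one range and the 50 nM libraries stood above it. KIF12, a kinesin, showed the same order, with 5.94 ± 0.267 in DMSO, 5.48 ± 0.567 at 25 nM and 9.66 ± 0.663 at 50 nM (0.81). IGFN1, which overlaps another gene, measured 141, 140.0 and 117 FPKM against 319.9, 225 and 243 (0.97).

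The largest falls by the same rule were those of HSPA6, PPP1R3C, ADM, NOG, NDRG1 and ERRFI1. PPP1R3C, which directs protein phosphatase 1 to glycogen, measured 30.0, 31.9 and 24.9 FPKM at 25 nM and 9.1, 11.8 and 11.3 at 50 nM (-1.42, adjusted p = 0.00018), with 65 ± 1.29 in DMSO. NOG, the BMP antagonist noggin, went from 55.9 ± 4.26 to 28.4 ± 2.73 FPKM (-0.97). ERRFI1, an inhibitor of the EGF receptor, went from 56.8 ± 6.34 to 31.2 ± 2.51 (-0.86), and IGFBP3, which binds insulin-like growth factors, from 158 ± 11.4 to 92.2 ± 8.57 (-0.78). PLIN2, the coat protein of lipid droplets, went from 55.1 ± 0.505 to 31.3 ± 3.3 FPKM (-0.82). DMSO was highest and 50 nM lowest for PPP1R3C, NOG, ERRFI1, IGFBP3 and PLIN2, with DMSO means of 74.4 FPKM for NOG, 90.7 for ERRFI1, 238 for IGFBP3 and 93.9 for PLIN2.

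In several large families the count of calls depended on the scaling. Cytosolic ribosomal proteins were lower in 30 of 77 cases and higher in 1, and lower in 13 under scaling by totals. The higher member, RPL36A, had a 25 nM mean of 0.403 FPKM and passed the filter only with the 50 nM libraries. Cytosolic aminoacyl-tRNA synthetases were lower in 14 of 20 cases and in 5 under scaling by totals. Of 135 tested zinc finger genes of chromosome 19, 24 were higher and 2 lower, with a median of 0.14 that changed sign under quantile normalization. The share called higher was 13.2% of all protein-coding genes and 14.7% of all tested genes, near that of the zinc finger genes. Proteasome subunits were lower in 10 of 32 cases and higher in 1 (4 and 2 under scaling by totals). The subunit higher under the deposited scaling, PSMA6, had a 25 nM mean of 0.468 FPKM and also passed the filter only with the 50 nM libraries. Of 15 NRF2 targets 5 were lower and 1 higher, none of the 5 under scaling by totals. Interferon-stimulated genes were lower in 3 of 18 cases and higher in 1 (1 and 1 under scaling by totals), a share of falls under the 24.3% of all protein-coding genes.

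**Figure D5:**
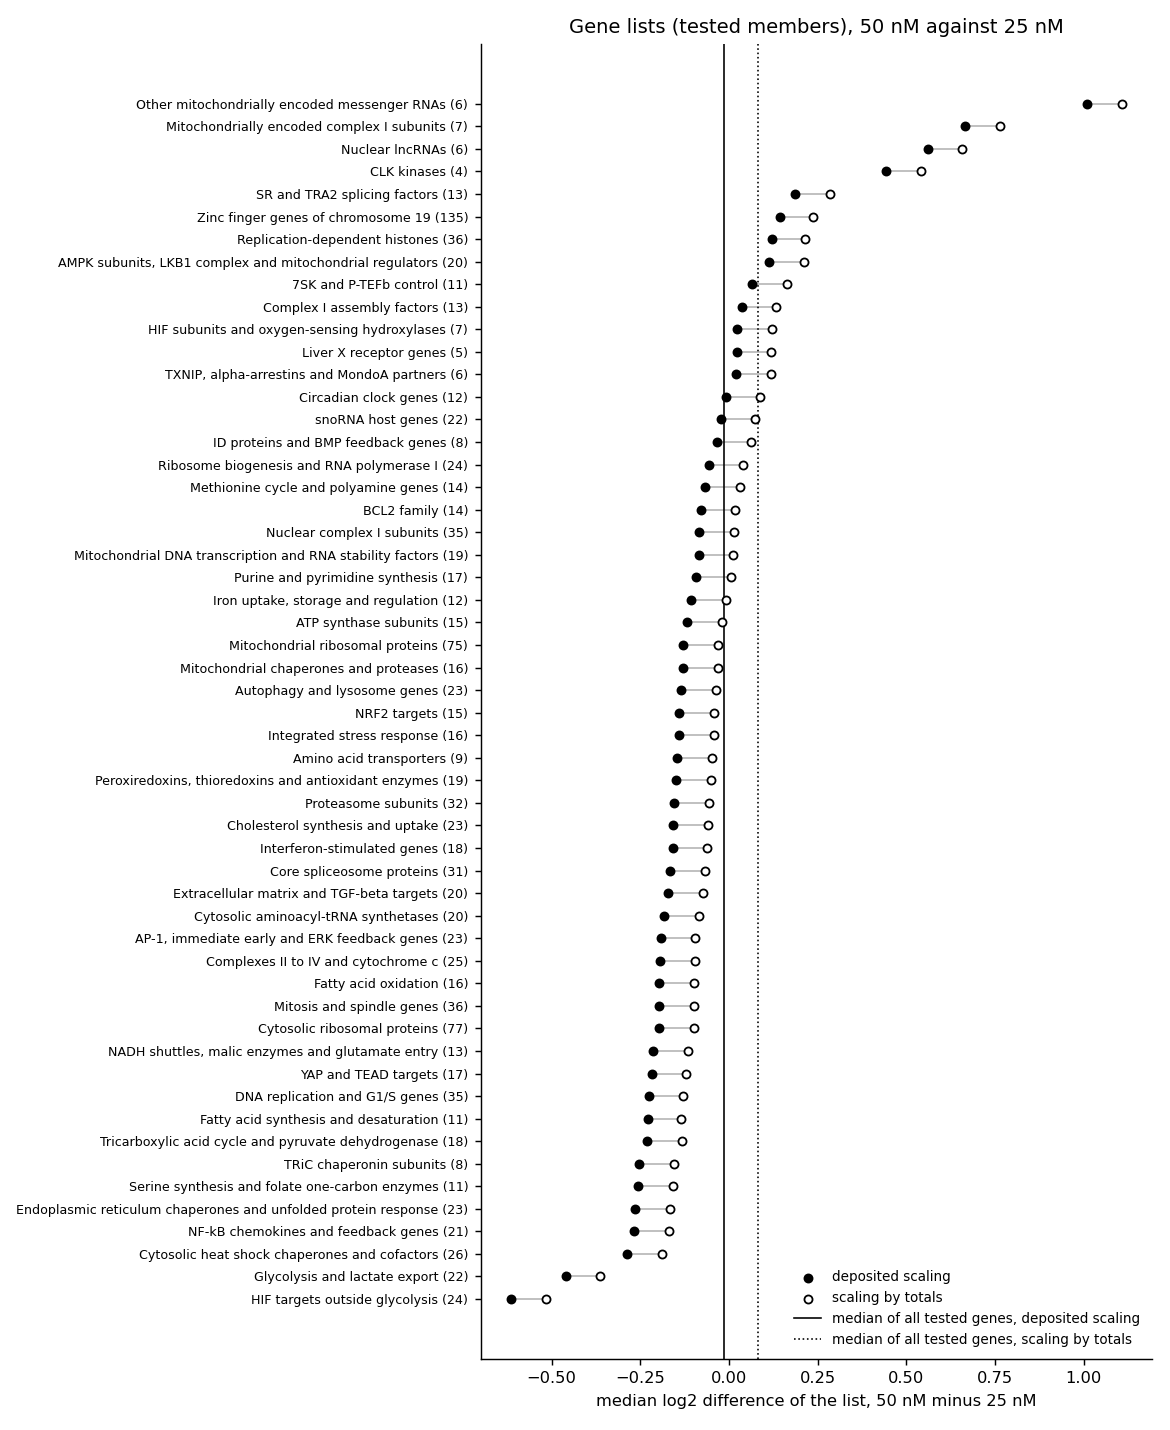
Median log2 difference, 50 nM minus 25 nM, of the tested members of each gene list shown (number in brackets), under the deposited scaling (filled) and scaling by totals (open), with vertical lines at the medians of all tested genes. HIF targets (-0.61) and glycolysis (-0.46) are lowest, and the messengers of the mitochondrial genome are highest under both scalings.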

How the data were processed

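RNA of 9 ACHN libraries (3 each of 0.1% DMSO, 25 nM and 50 nM piericidin A) was sequenced, and groups follow the labels. The authors deposited FPKM values for 30673 genes and a table of log2 FPKM values for the 18859 genes above 0 in all 9 libraries, which also gives gene type, position and length. The genome build was hg38, per the submitters' processing notes. For the aligner, counter, annotation, strand setting and RNA selection nothing is stated in those sources. Multiplied by gene length, 100% of FPKM values were whole steps of a library's smallest unit (tolerance 0.01), and these steps gave the fragment totals.

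Tests used limma 3.58.1 in R 4.3.3 on log2(FPKM + 0.1), with trend and robust moderation, over all 9 libraries with group as the only term. Differences are on this scale, which understates the change of low genes. Genes needed at least 0.5 FPKM in at least 3 libraries, and calls a Benjamini-Hochberg adjusted p under 0.05. Gene types are those of the authors' log2 table; genes outside it count as other types. Single values were tested by exact two-sided permutation over the 20 splits, whose smallest p is 0.1. The code was tested on simulated data.

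Named genes were the 12 largest rises and falls among called coding genes with a mean of at least 5 FPKM and no overlap of libraries or of other genes, 4 each among those that overlap another gene, the 3 smallest p in each direction per list, the mitochondrial genes and PRDX1, and the 2 largest rises and falls per large non-coding type. Other list members were chosen after their values were seen. The members and lists were chosen with earlier results of these data known. Promoters came from RefSeq (GRCh38.p14), matched by symbol. Alternatives covered scaling, pseudocount, filter, model and leaving out each library. Some genes and the lists that rest on them are not reported here.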

Additional observations from a re-analysis of the deposited data

How the results depend on the processing

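Direction counts moved most with the scaling. With libraries scaled by totals, 1358 of all tested genes and 1457 of the protein-coding genes tested alone were lower at 50 nM. With scaling by totals of nuclear protein-coding genes, 3585 of all genes were higher and 1038 lower, and 3062 and 1094 of the coding genes. Leaving out 1 library at a time gave 3441 to 5829 called genes (2838 to 5343 when also scaled by totals, an alternative chosen after seeing the data), 1469 to 2432 higher (1999 to 3272) and 1972 to 3397 lower (839 to 2071). Among coding genes tested alone it gave 3567 to 5852 called (2875 to 5260), 1301 to 2103 higher (1909 to 2995) and 2266 to 3749 lower (966 to 2265). Lower members were 22 to 24 for HIF targets, 20 to 21 for glycolysis and 13 to 17 for chaperones, and higher members 6 to 11 for mitochondrial messengers (10 to 11 when scaled by totals) and 439 to 723 for other gene types (477 to 833). A mean of at least 1 FPKM left 445 higher genes of other types. The rise in their share of fragments was 0.515 percentage points of nuclear fragments against 0.462 of all. The difference in genes detected was 761 at 1 FPKM and 1612 above 0. MT-ND4 reversed to -0.11 under quantile normalization; the cause was not tested. The labels state no pairing of same-numbered libraries. Those of the 2 doses correlated at 0.079, -0.003 and 0.048 in their deviations, which cannot exclude a pairing. With a replicate block 4587 genes were called, 2033 higher and 2554 lower, and 4732 of the coding genes alone. The voom test on recovered fragments called 5781 genes. Of the called genes that the text names, 94 kept their call when any single library was left out and under the other settings listed for the methods, quantile normalization ended the call of 18, leaving out replicate 1 of the 25 nM group that of 12, and the replicate block that of 2, EGLN1 and NFKB2.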

Other observations

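Some short features on the short arm of chromosome 21 were higher at 50 nM, and were singled out after their values were seen. MIR3648-1 and MIR3687-1 are short genes within the transcribed spacer of ribosomal DNA. MIR3687-1 (61 bases, chr21:8208844-8208904, hg38) measured 85.6, 132 and 137 FPKM at 25 nM and 476, 411 and 293 at 50 nM, against a DMSO mean of 7.14 (log2 difference 1.74, limma adjusted p = 0.00187). MIR3648-1 had means of 1.32 FPKM in DMSO, 34.5 at 25 nM and 79.7 at 50 nM (1.22). Of 14 tested genes within the first 9 Mb of the chromosome, 6 were higher and 1 lower at 50 nM. FP236383.10 (57 bases) stood lower in 2 of the 3 libraries at 50 nM, with 1205, 1336 and 1481 FPKM at 25 nM and 48.9, 2959 and 32.9 at 50 nM (log2 difference -2.99, SE 1.46, limma adjusted p = 0.151), and was not called. Together the 14 held 0.0369, 0.0394 and 0.0469% of fragments at 25 nM and 0.0835, 0.0988 and 0.0494% at 50 nM, so replicate 3 of the 50 nM group stood close to the 25 nM libraries. Without FP236383.10 the shares were 0.0301, 0.0319 and 0.0388% at 25 nM and 0.0832, 0.0812 and 0.0492% at 50 nM, an alternative chosen after seeing the data. Copies of ribosomal DNA are near-identical, so how reads were divided among these features is uncertain.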
